A study of Homo sapiens with 2 samples.

Results

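The 38 genes described here encode the chaperones of the endoplasmic reticulum (ER), its disulfide isomerases, the machinery of ER-associated degradation (ERAD) and the ATF6, XBP1 and ERN1 arms of the unfolded protein response (UPR). They were listed by function, with earlier results of these data already known. All 38 were found among the 41582 genes to which the transcript table could be summed. Secreted and membrane proteins fold in the ER with the help of these chaperones, and proteins that fail to fold are sent back to the cytosol for degradation. When unfolded proteins build up, the sensors ATF6 and ERN1 (also called IRE1) and the kinase EIF2AK3 (PERK) are activated. Cleaved ATF6 and the spliced form of XBP1 then switch on chaperone and ERAD genes, while PERK acts through ATF4 and DDIT3 (CHOP).

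The cells were U87, a human glioblastoma cell line labelled as wild type, and RNA was sequenced after 72 h of treatment with either the vehicle DMSO or the curcumin analog CCA-1.1. Each condition was 1 library, so the differences below could not be checked against replicates, and neither p-values nor errors are given. The dose of CCA-1.1 in the sequencing experiment is not given in the sources used here. Values are in TPM, transcript abundance scaled for transcript length and library total, so that levels of different genes can be compared, but the read depth is unknown.

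Every difference below is log2(TPM + 1) under CCA-1.1 minus log2(TPM + 1) under DMSO, so that a positive value means a higher level in the CCA-1.1 library. This scale understates differences at low TPM, and folds are read on it. The measure of scatter is the set of 7906 protein-coding genes that averaged at least 10 TPM, whose median difference was 0.0039 and whose 5th and 95th percentiles were -0.29 and 0.31. As a check of the label, 8 of 10 glioblastoma and mesenchymal markers had a mean of at least 1 TPM. Those averaging at least 10 TPM were VIM, CD44, SOX9, CHI3L1 and TNC, with differences of -0.05, -0.36, -0.35, -0.17 and -0.74. Among endothelial markers, PECAM1 also exceeded 1 TPM, at 3.41 TPM under DMSO and 2.71 TPM under CCA-1.1, whereas VWF and CDH5 did not. VIM was at 3216.8 TPM under DMSO and 3106.3 TPM under CCA-1.1, whereas the astrocyte markers GFAP (0.41 and 0.57 TPM) and S100B (listed at 0 in both) were near or at 0. The defining markers of leukocytes and epithelium, PTPRC, CD3E, EPCAM and CDH1, were each below 0.2 TPM in both libraries, while the macrophage marker CD68 was at 494.2 and 397.1 TPM.

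The ER folding machinery was close to level between the libraries, with a small shift toward lower values in CCA-1.1 treated U87 cells. Of all 38 genes, 27 were lower and 11 were higher in the CCA-1.1 library. With a mean of at least 10 TPM there were 35 genes, 25 of them lower and 10 higher, against 48.8% lower and 51.2% higher among the 7906 protein-coding genes. Their median difference was -0.08, against 0.0039 for all. At that level, lower values also made up 63.6% of the other ER lists and 65.0% of the cytosolic chaperones, both described below. Of the 38 genes, EDEM3, ERN1 and DERL3 were under that level, and ERO1B reached it only through the CCA-1.1 library.

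No gene of the 38 differed by 2-fold, a difference that 0.0632% of protein-coding genes passed upward and 0.152% passed downward. At 1.2-fold, a lower limit chosen with the narrow scatter of these libraries known, 1 of the 35 genes was higher (2.86%, against 7.44% of all) and 4 were lower (11.4%, against 6.07% of all). The higher gene was ERO1B, and the lower genes were EDEM2, CREB3L2, DNAJC3 and P4HB. With differences centred within deciles of GC content, ERO1B (0.22) and P4HB (-0.24) no longer passed. With curated coding transcripts only, EDEM1 (-0.33) and CRELD2 (-0.26) passed as well, which made 6 lower genes. Only EDEM2 and CREB3L2 lay beyond the 5th or 95th percentile of all, both at the lower end as single genes, and 33 of the 35 lay within. With 1 library per condition, an effect of CCA-1.1 and a difference between cultures cannot be told apart, nor can fewer cells that express a gene and less of its RNA per cell.

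**Figure D1:**
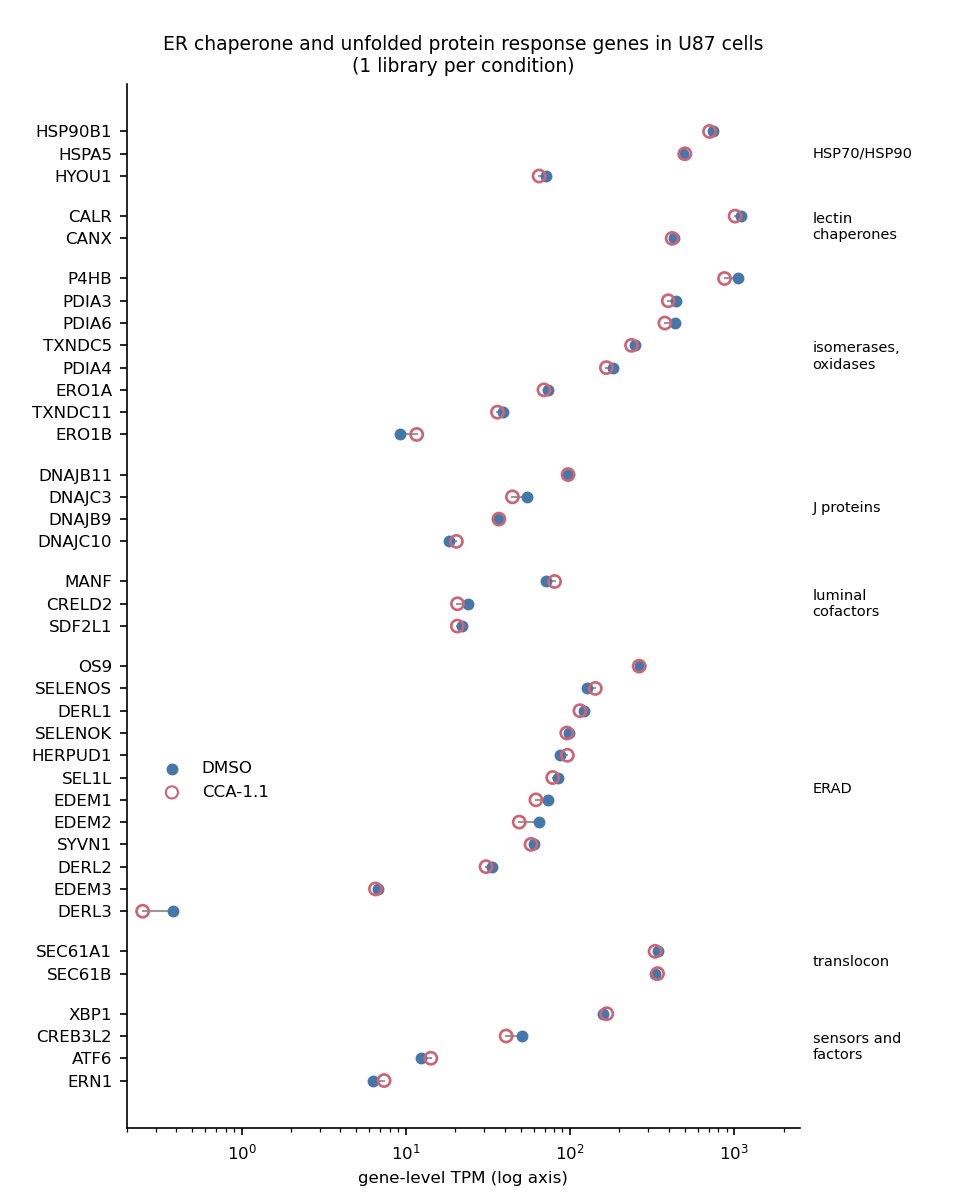
Gene-level TPM (log axis) of the 38 genes in the DMSO library (filled blue) and the CCA-1.1 library (open red), grouped by role and ordered by the DMSO level. CALR, P4HB, HSP90B1 and HSPA5 had the highest values in both libraries, DERL3 was below 1 TPM, and most pairs of points overlap.

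Summed over all 38 genes, the DMSO library held 7572.1 TPM and the CCA-1.1 library 7098.0 TPM, that is 0.757% and 0.710% of each library. The sum was thus 474.2 TPM or 6.26% lower in CCA-1.1. Most of this net difference came from 4 abundant genes, P4HB, CALR, PDIA6 and PDIA3, whose lower TPM added up to 77.9% of it. P4HB made the largest contribution (-180.18 TPM), followed by CALR (-86.88 TPM). The order of the genes was nearly the same in both libraries, with a Spearman correlation of 0.996 across the 38 genes, which are not replicates.

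HSPA5, also known as BiP, is the ER member of the HSP70 family and the chaperone that holds the UPR sensors inactive. It was at 489.4 TPM under DMSO and 501.2 TPM under CCA-1.1, a difference of 0.03 that is near the middle of all genes. HSP90B1 (GRP94), the HSP90 of the ER, was at 739.9 TPM under DMSO and 708.0 TPM under CCA-1.1, a difference of -0.06. HYOU1, which exchanges the nucleotide of HSPA5, was at 71.1 TPM under DMSO and 64.9 TPM under CCA-1.1, a difference of -0.13. None of these 3 chaperones differed by 1.2-fold. HSPA5 is among the genes most often used as a readout of the UPR.

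The lectin chaperones CALR and CANX bind newly made glycoproteins through their sugar chains. CALR was the highest of the 38 genes in both libraries, at 1100.1 TPM under DMSO and 1013.2 TPM under CCA-1.1, a difference of -0.12. CANX, its relative in the ER membrane, was at 429.5 TPM under DMSO and 419.2 TPM under CCA-1.1, a difference of -0.03. Both were lower in the CCA-1.1 library, but among the protein-coding genes at 300 TPM and over, 29.3% had a lower difference than CALR and 49.1% a lower one than CANX.

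The disulfide isomerases, which form and exchange disulfide bonds, and the ER oxidases together had the lowest median difference of the 8 roles, -0.12 over 8 genes. All 6 isomerases and 1 of the 2 oxidases were lower in CCA-1.1, against 48.8% of all protein-coding genes that averaged at least 10 TPM. P4HB, the founding member of the family and also a subunit of collagen prolyl 4-hydroxylase, was at 1053.7 TPM under DMSO and 873.5 TPM under CCA-1.1, a difference of -0.27. Only 8.11% of the 444 protein-coding genes at 300 TPM and over had a lower difference. PDIA6, which also acts on the UPR sensors, was at 434.3 TPM under DMSO and 378.5 TPM under CCA-1.1, a difference of -0.20. The isomerase PDIA3, which works with CALR and CANX, was at 443.3 TPM under DMSO and 397.0 TPM under CCA-1.1, a difference of -0.16. PDIA4 was at 183.3 and 166.7 TPM, a difference of -0.14. TXNDC5 and TXNDC11, further members with thioredoxin domains, differed by -0.08 and -0.10, from 250.6 to 237.1 TPM and from 39.0 to 36.2 TPM.

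The oxidases ERO1A and ERO1B, which supply P4HB with oxidizing power, lay on opposite sides of 0. ERO1A was at 74.0 TPM under DMSO and 69.5 TPM under CCA-1.1, a difference of -0.09, whereas ERO1B was at 9.26 TPM under DMSO and 11.7 TPM under CCA-1.1, a difference of 0.30. ERO1B had the largest positive difference of the 38 genes and the only one past 1.2-fold upward, and it was also the lowest of the 35 genes in both libraries. Its longest annotated transcript has a GC content of 34.3%, in the lowest quartile of protein-coding genes, whose median difference was 0.06 against -0.03 in the quartile richest in GC. With differences centred within deciles of GC content, its difference was 0.22, and the part of GC content in its value was not tested.

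The partners of P4HB in prolyl hydroxylation were looked at after its value had been seen. P4HA1, a catalytic subunit of that enzyme, was at 201.7 TPM under DMSO and 191.8 TPM under CCA-1.1, a difference of -0.07. P4HA2, a second catalytic subunit, was at 91.2 and 80.3 TPM, a difference of -0.18. P4HA3 and MTTP, the partner of P4HB in lipoprotein assembly, were below 1 TPM in both libraries.

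The J proteins bring unfolded clients to HSPA5, and here they split. DNAJC3 (p58IPK), which is also an inhibitor of PERK, was at 54.6 TPM under DMSO and 44.7 TPM under CCA-1.1, a difference of -0.28 that lies at the edge of the 5th percentile of all genes. DNAJB9 (ERdj4), a classical target of spliced XBP1 that represses ERN1, was at 36.8 TPM under DMSO and 36.9 TPM under CCA-1.1. DNAJB11 (ERdj3) was likewise level, at 97.5 and 97.4 TPM. DNAJC10 (ERdj5), a reductase that prepares proteins for degradation, was at 18.4 TPM under DMSO and 20.4 TPM under CCA-1.1, a difference of 0.14.

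SDF2L1, CRELD2 and MANF are small luminal proteins that are strongly induced in classical ER stress. MANF was at 71.6 TPM under DMSO and 80.6 TPM under CCA-1.1, a difference of 0.17. CRELD2 was at 23.9 TPM under DMSO and 20.7 TPM under CCA-1.1, a difference of -0.20, and SDF2L1 was at 21.9 and 20.6 TPM, a difference of -0.08. These 3 genes therefore did not share a direction.

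**Figure D2:**
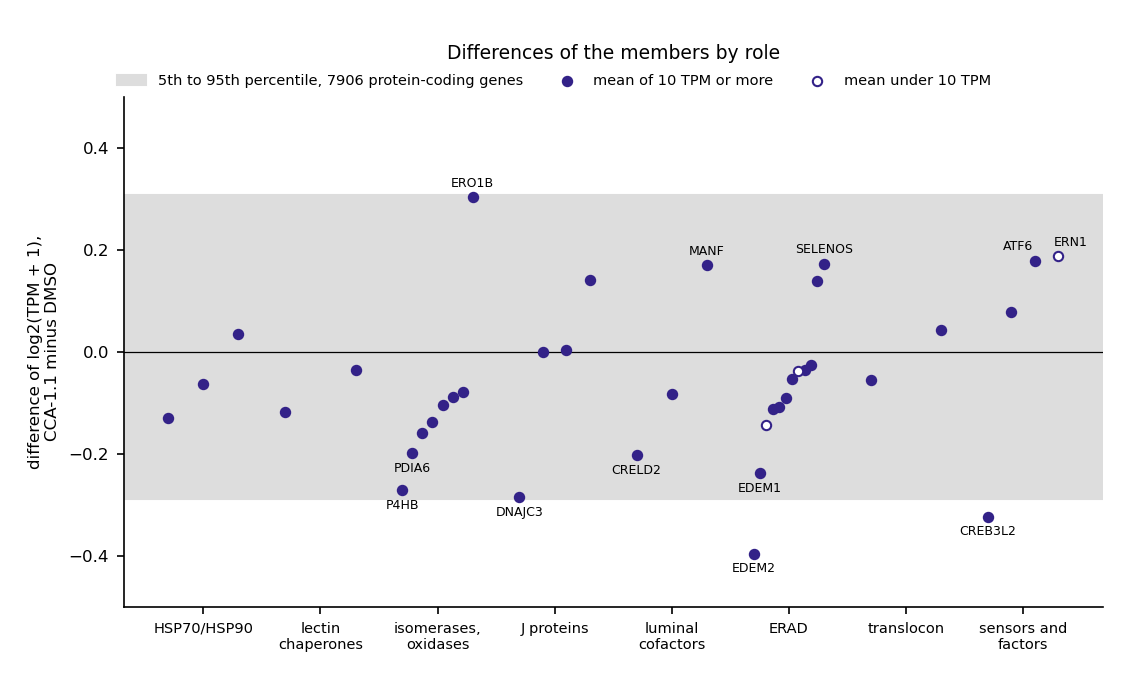
Difference of log2(TPM + 1), CCA-1.1 minus DMSO, for each of the 38 genes by role, with the 3 genes under a mean of 10 TPM as open points. The grey band spans the 5th to 95th percentiles (-0.29 and 0.31) of the 7906 protein-coding genes, and EDEM2 and CREB3L2 are the points outside it.

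In ERAD, 8 of the 10 genes that averaged 10 TPM or more were lower in the CCA-1.1 library, against 48.8% of all protein-coding genes of that level. The median difference of these 10 genes was -0.07. The EDEM proteins trim or recognise mannose on misfolded glycoproteins, and EDEM2 starts this trimming. EDEM2 was at 64.9 TPM under DMSO and 49.1 TPM under CCA-1.1, and its difference of -0.40 was the largest in size of the 38 genes. Only 2.05% of the 7906 protein-coding genes had a lower difference. A read-through gene that contains EDEM2 sequence, MMP24-AS1-EDEM2, differed in the other direction, from 6.91 TPM to 9.57 TPM, and the sum of both genes differed by -0.29. With this sum EDEM2 was still past 1.2-fold lower and was barely inside the 5th percentile, at -0.2869 against -0.2872. It was then smaller in size than CREB3L2. Both its place outside the range and its rank therefore rest on how reads were divided between the 2 genes. EDEM1 was at 73.3 TPM under DMSO and 62.0 TPM under CCA-1.1, a difference of -0.24, and lay just short of 1.2-fold, as the gene next to the 4 that passed it downward. EDEM3 was low, at 6.74 and 6.54 TPM, a difference of -0.04.

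The ubiquitin ligase of ERAD, SYVN1 (HRD1), was at 60.1 TPM under DMSO and 57.9 TPM under CCA-1.1, a difference of -0.05. Its partner SEL1L was at 85.0 and 78.5 TPM, a difference of -0.11. OS9, a lectin that delivers glycoproteins to this ligase, was at 268.8 and 263.9 TPM, a difference of -0.03. The ligase complex was thus level to slightly lower.

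HERPUD1 and SELENOS, both part of or bound to the same complex, stood on the other side. HERPUD1 was at 87.5 TPM under DMSO and 96.4 TPM under CCA-1.1, a difference of 0.14. SELENOS was at 126.5 TPM under DMSO and 142.7 TPM under CCA-1.1, a difference of 0.17, higher than that of 89.8% of genes between 100 and 300 TPM. The other ER selenoprotein of the group, SELENOK, did not follow it, with 98.1 TPM under DMSO and 95.7 TPM under CCA-1.1. Among the derlins, which form the channel through which ERAD substrates leave, DERL1 was at 122.4 and 115.0 TPM and DERL2 was at 33.3 and 30.8 TPM, with differences of -0.09 and -0.11. DERL3 was at 0.38 and 0.25 TPM, too low for a direction to be read.

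The translocon, through which new proteins enter the ER, was level. SEC61A1, the channel itself, was at 342.8 TPM under DMSO and 329.9 TPM under CCA-1.1, a difference of -0.06. SEC61B, a small subunit, was at 331.6 and 341.6 TPM, a difference of 0.04.

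Both stress sensors among the 38 genes were low and were somewhat higher in the CCA-1.1 library. ATF6, which is cut in the Golgi to release a transcription factor, was at 12.5 TPM under DMSO and 14.2 TPM under CCA-1.1, a difference of 0.18. ERN1, the kinase and RNase that splices XBP1, was at 6.36 TPM under DMSO and 7.38 TPM under CCA-1.1, a difference of 0.19. Values of this size were common, since 85.0% of protein-coding genes had a lower difference than ATF6 and the 95th percentile of the 4135 genes between 1 and 10 TPM was 0.44. CREB3L2, a membrane-bound factor related to ATF6 that serves secretion of matrix proteins, had the opposite sign, with 51.4 TPM under DMSO and 40.9 TPM under CCA-1.1, a difference of -0.32. Only 3.59% of protein-coding genes had a lower difference than CREB3L2.

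XBP1 RNA reports on ERN1 activity, because ERN1 removes a short intron from it in the cytosol and so shifts the reading frame toward an active transcription factor. In GENCODE on GRCh37 this intron has 26 bases, at chr22:29192116-29192141 on the minus strand, inside exon 4 of the unspliced transcript. It is shown here because the measured transcripts XBP1 NM_005080.4 (unspliced) and NM_001079539.2 (spliced) differ by it. The capitals mark the removed bases, as placed by the annotation, and the 6 bases GCAGCA also follow the intron, so that the same product results from cuts up to 6 bases further on.
XBP1 intron with 24 bases on each side: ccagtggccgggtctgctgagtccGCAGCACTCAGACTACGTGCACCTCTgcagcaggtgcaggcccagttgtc

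Summed over its 4 transcripts, XBP1 was at 158.6 TPM under DMSO and 167.5 TPM under CCA-1.1, a difference of 0.08. The unspliced form NM_005080.4 held most of this, with 142.7 TPM under DMSO and 148.5 TPM under CCA-1.1. The spliced form NM_001079539.2 was at 9.43 TPM under DMSO and 14.2 TPM under CCA-1.1, a ratio of 1.51 and a difference of 0.54. Its share of XBP1 was 5.94% under DMSO and 8.48% under CCA-1.1, and of the spliced and unspliced forms alone it was 6.20% and 8.73%. Thus the unspliced form was 15.1 times the spliced form in DMSO and 10.5 times in CCA-1.1. The remaining transcripts, NM_001394000.1 (6.22 and 4.43 TPM) and NM_001393999.1 (0.24 and 0.35 TPM), were not assigned to either form. The assignment of NM_005080.4 and NM_001079539.2 rests on general knowledge of these transcripts and was not checked here.

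The difference of spliced XBP1 lay inside the 5th to 95th percentile range of transcripts of similar level, close to the upper end. That range compares the same DMSO and CCA-1.1 libraries, so it is not a measure of noise alone. Among 3115 transcripts with a mean between 9 and 15 TPM, the 5th and 95th percentiles of the difference were -0.53 and 0.59, and 94.1% had a lower difference than the spliced form. Both forms share all sequence except the intron and its junction, so that reads from the shared sequence were divided by estimation, and the number that crossed the junction is unknown from TPM. BLOC1S1, an RNA that ERN1 cleaves when strongly activated, was looked at after the XBP1 values and was at 234.1 TPM under DMSO and 230.4 TPM under CCA-1.1.

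**Figure D3:**
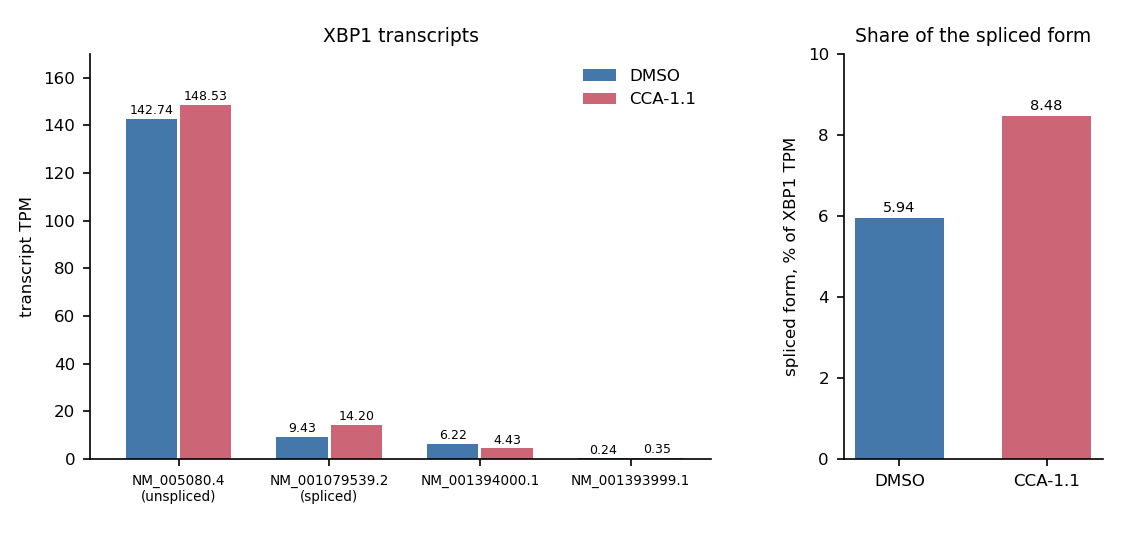
Left, TPM of the 4 XBP1 transcripts in the DMSO (blue) and CCA-1.1 (red) libraries, 1 library each. Right, the spliced form as a percentage of all XBP1 TPM, which was 5.94% under DMSO and 8.48% under CCA-1.1.

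Promoter sequences were searched for known elements of the UPR, and 14 of the genes searched held any of them, while 21 held none. The ER stress response element (ERSE), which ATF6 binds together with NF-Y, reads CCAAT, any 9 bases, then CCACG. It was searched on both strands of RefSeq windows on GRCh38.p14 that run from 250 bases before to 50 after each start site, and of the 38 genes 35 had a window. Of these 35 genes, 8 (22.9%) held the element, namely HSPA5, HSP90B1, CALR, CANX, PDIA6, ERO1B, XBP1 and CRELD2, against 0.0916% of all 27305 genes with a window. The genes and the elements searched were both chosen for their part in the UPR, so higher shares follow in part from that choice. The sites below are shown because they belong to the genes by which the UPR is usually read, with the fixed letters in capitals and 20 bases on each side. On the opposite strand the element reads CGTGG, 9 bases, then ATTGG.
HSPA5, chr9:125241371-125241429 (minus strand), 66 bases before the start: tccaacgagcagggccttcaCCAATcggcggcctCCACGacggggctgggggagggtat
HSP90B1, chr12:103930196-103930254 (plus strand), 194 bases before the start: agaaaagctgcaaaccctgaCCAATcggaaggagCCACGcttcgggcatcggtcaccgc
HSP90B1, chr12:103930301-103930359 (plus strand), 89 bases before the start, opposite orientation: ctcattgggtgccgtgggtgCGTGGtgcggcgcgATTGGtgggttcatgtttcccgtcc
CALR, chr19:12938364-12938422 (plus strand), 225 bases before the start, opposite orientation: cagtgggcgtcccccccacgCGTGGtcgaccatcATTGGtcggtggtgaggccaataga
PDIA6, chr2:10812833-10812891 (minus strand), 86 bases before the start: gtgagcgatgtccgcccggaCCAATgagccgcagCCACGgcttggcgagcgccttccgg
XBP1, chr22:28800583-28800641 (minus strand), 52 bases before the start: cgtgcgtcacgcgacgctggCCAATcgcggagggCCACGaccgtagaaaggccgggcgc
CRELD2, chr22:49918534-49918592 (plus strand), 80 bases before the start, opposite orientation: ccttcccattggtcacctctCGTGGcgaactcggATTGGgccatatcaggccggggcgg

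The second form, ERSE-II, reads ATTGG, any 1 base, then CCACG, and was held by HYOU1, HERPUD1 and SDF2L1, that is 8.57% of the 35 genes against 0.0696% of all. The site of HERPUD1 is shown as an example, since HERPUD1 was among the higher genes. HYOU1 held it at 2 places.
HERPUD1, chr16:56932005-56932055 (plus strand), 117 bases before the start: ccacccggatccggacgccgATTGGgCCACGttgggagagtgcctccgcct

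The UPR element (UPRE), TGACGTGG, which spliced XBP1 and ATF6 can bind, was held by DNAJC10, TXNDC5, HYOU1 and TXNDC11, 11.4% of the 35 genes against 0.927% of all. In HYOU1 the element overlapped an ERSE-II, and in TXNDC11 it lay after the start site. Such matches describe letters in a window and do not show that a factor was bound. DERL3, PDIA3 and DERL1 had no window and were not searched.

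Genes with these elements were mostly lower in the CCA-1.1 library, as were those without. The 8 genes with an ERSE ranged from -0.20 for CRELD2 to 0.30 for ERO1B, with 5 lower and 3 higher and a median of -0.05. Of the 3 genes with an ERSE-II, 2 were lower, HYOU1 at -0.13 and SDF2L1 at -0.08, and HERPUD1 was higher at 0.14. Of the 4 genes with a UPRE, 3 were lower, with a median of -0.09, and DNAJC10 was higher at 0.14. With any of the 3 elements, 9 of 14 genes were lower, with a median of -0.07. Without any, 14 of 19 genes that averaged 10 TPM or more were lower, with a median of -0.06. Among all protein-coding genes of that level, 48.8% were lower. Across the whole table, the 15 genes of that level with an ERSE, of which 8 are among the 38, had a median of -0.06, with 9 lower and 6 higher. The 11 genes with an ERSE-II had a median of -0.10, with 9 lower and 2 higher, and the 93 genes with a UPRE had a median of -0.0077, with 49 lower and 44 higher.

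**Figure D4:**
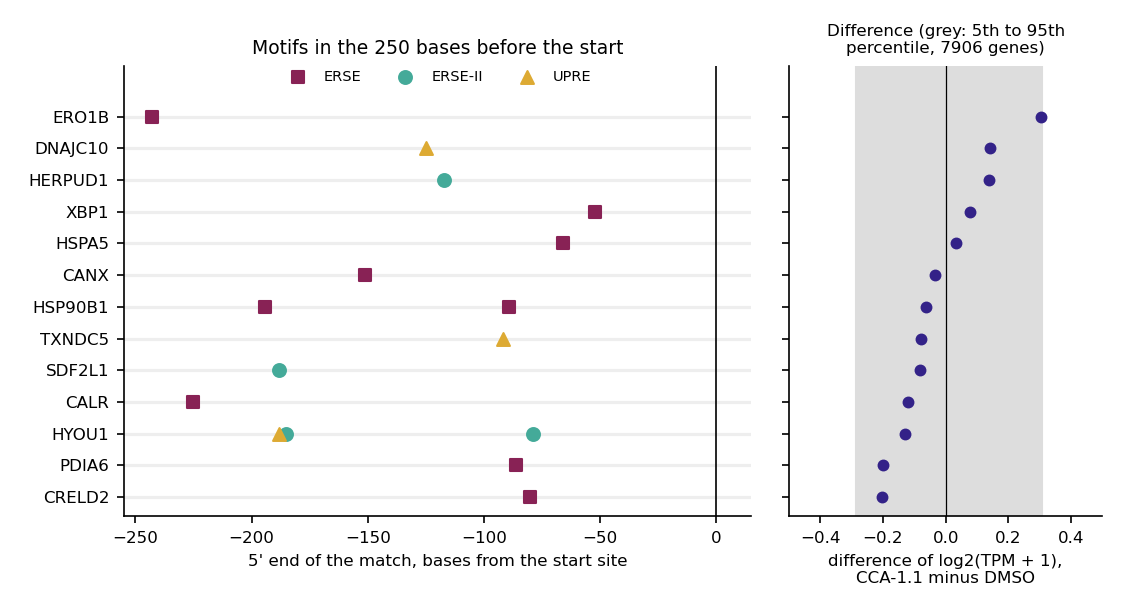
Left, position of the 5′ end of each match of ERSE (squares), ERSE-II (circles) and UPRE (triangles) in the 250 bases before the start site of 13 genes, with CANX drawn from 1 of its start sites. Right, the difference of each gene on the log2(TPM + 1) scale, CCA-1.1 minus DMSO, from -0.20 for CRELD2 to 0.30 for ERO1B.

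Single transcripts were compared with the gene sums, since Kallisto divides the reads of a gene among its transcripts. The table lists 180 transcripts of the 38 genes, between 1 and 14 for each gene, of which 23 were at 0 in both libraries. In all 38 genes the same transcript had the highest value in both libraries. A 2-fold difference was passed by 9 transcripts of 8 genes, 6 higher and 3 lower in CCA-1.1. That is 5.00% of the 180, against 2.24% of all transcripts with a gene symbol. The latter set had no lower limit of level. A transcript of at most 1 TPM in both libraries cannot pass 2-fold on this scale, so the shares are not alike in basis. Of these 9 transcripts, 7 were listed at 0 in one library, and 1 reached 5 TPM in either library. This was OS9 NM_001017957.3, at 5.57 TPM under DMSO and 1.15 TPM under CCA-1.1, which held 2.07% of the OS9 total in DMSO and 0.436% in CCA-1.1, while OS9 as a whole was level.

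Some of the genes named above had a single transcript that differed more than the gene sum. EDEM2 NM_018217.3 was at 58.7 TPM under DMSO and 39.8 TPM under CCA-1.1, a difference of -0.55, while EDEM2 NM_001145025.2 was at 4.03 and 6.62 TPM. The share of the first in EDEM2 was therefore 90.5% in DMSO and 81.0% in CCA-1.1. For CREB3L2 most of the relative difference was in NM_001318246.2, at 14.4 TPM under DMSO and 8.01 TPM under CCA-1.1, with the leading transcript NM_194071.4 at 34.7 and 30.3 TPM. For TXNDC11 the leading transcript NM_015914.7 was at 21.6 and 15.6 TPM, a difference of -0.45, although the gene differed by -0.10. By contrast, HSPA5, HSP90B1, CALR, PDIA3, P4HB, ERO1B, DNAJB9, MANF and SDF2L1 each have 1 transcript in the table, so that no division between transcripts of the gene enters their values.

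The genes around the 38 were taken from 9 further lists with 176 genes. The PERK arm is the remaining branch of the UPR. It was listed jointly with the integrated stress response, in which other activators of ATF4 also act, so the list is not specific to PERK. Of the 14 genes of this joint list that averaged 10 TPM or more, 5 were past 1.2-fold higher and 2 past 1.2-fold lower. These are 35.7% and 14.3%, against 7.44% and 6.07% of all, and the median was 0.12. TRIB3, a pseudokinase downstream of ATF4, was at 27.4 TPM under DMSO and 41.1 TPM under CCA-1.1, a difference of 0.57. DDIT3, named like ATF4 after its value was seen, was at 273.2 TPM under DMSO and 403.7 TPM under CCA-1.1, a difference of 0.56. ATF4 itself was at 312.1 and 422.9 TPM, a difference of 0.44. CEBPB, a factor that pairs with DDIT3, had the largest negative difference of the list, -0.38, with 521.0 and 401.2 TPM. The PERK gene EIF2AK3 was level, at 44.9 and 42.9 TPM. The others past 1.2-fold were ATF3 (0.43) and NUPR1 (0.38) upward and STC2 (-0.37) downward. ASNS (0.26), PPP1R15A (0.14), EIF2S1 (0.11), DDIT4 (0.08), SESN2 (-0.02) and PPP1R15B (-0.23) did not pass it, so the list did not share a direction.

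Set side by side, the ratio of DDIT3 to HSPA5 was 0.558 under DMSO and 0.805 under CCA-1.1. DDIT3 was named after its value was seen and HSPA5 was level, so the higher ratio follows from that choice. Both genes are induced in classical ER stress, and DDIT3 is also induced by other activators of ATF4. Whether any of these acted was not tested, and no test of the difference between the arms can be made with 1 library per condition.

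**Figure D5:**
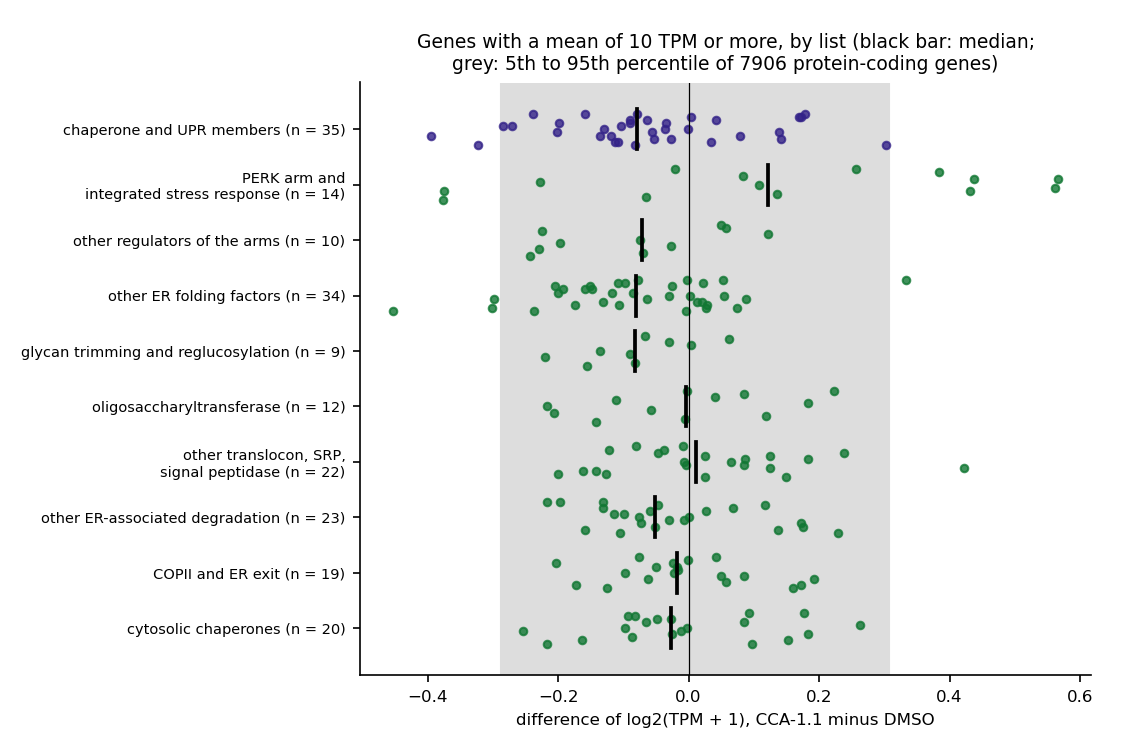
Difference of log2(TPM + 1), CCA-1.1 minus DMSO, for genes that averaged 10 TPM or more in the 38-gene group (35 genes, purple) and in 9 further lists (green), with the median as a black bar. The medians lay between -0.08 and 0.01 except for the joint list of the PERK arm and integrated stress response at 0.12. The grey band spans -0.29 to 0.31.

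The remaining lists lay closer to 0. Over the 7 lists of ER functions, 129 of 139 genes had a mean of at least 10 TPM, with a median of -0.03. Of these 129 genes 82 were lower (63.6%, against 48.8% of all) and 47 higher. At 1.2-fold 2 of these 129 were higher and 3 lower (1.55% and 2.33%, against 7.44% and 6.07% of all). Other folding factors had a median of -0.08 over 34 genes, with FKBP9, a prolyl isomerase, from 57.0 to 41.4 TPM (-0.45) and CLGN, a relative of CANX, from 33.4 to 42.3 TPM (0.33). Glycan trimming and reglucosylation had a median of -0.08 over 9 genes, between MAN1A1 at -0.22 and UGGT2 at 0.06.

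The other regulators of the ATF6, XBP1 and ERN1 arms had a median of -0.07 over 10 genes, between CREB3 at -0.24 and BAX at 0.12. The other ERAD genes had a median of -0.05 over 23 genes, between VCP, the ATPase that extracts ERAD substrates, at -0.22 and TMUB1 at 0.23. The COPII and ER exit genes had a median of -0.02 over 19 genes, between SAR1A at -0.20 and SEC24B at 0.19. At a mean of at least 10 TPM no gene of these 3 lists passed 1.2-fold. Just under that level, CREB3L4, a relative of CREB3L2 named after its value was seen, was at 8.38 and 10.97 TPM, a difference of 0.35.

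The protein-synthesis side of the ER was closest to level. The oligosaccharyltransferase, which adds sugar chains to new proteins, had a median of -0.0036 over 12 genes, between RPN2 at -0.22 and TUSC3 at 0.22. The remaining translocon, signal recognition and signal peptidase genes had a median of 0.01 over 22 genes, between SSR1 at -0.20 and SEC11C, a signal peptidase subunit, at 0.42, from 44.3 to 59.8 TPM. Chaperones of the cytosol, taken for comparison with those of the ER, had a median of -0.03 over 20 genes, between CRYAB at -0.25 and FKBP4, a co-chaperone of HSP90, at 0.26, just short of 1.2-fold.

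Level and base composition varied along with the differences over all genes, and their part in the values of the 38 genes was not tested. The median difference was 0.03 for the 3416 protein-coding genes between 10 and 30 TPM and -0.03 for the 444 genes at 300 TPM and over. That upper level was reached by 9 of the 38 genes. The 35 genes had a median GC content of 47.1%, against 48.0% for all. With differences centred within deciles of GC content, an alternative chosen after seeing the data, the median of the 35 genes was -0.08 and 26 of them were lower.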

How the data were processed

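U87 cells treated for 72 h with DMSO or CCA-1.1 were sequenced as 1 library each. Per the labels and the study's methods, the authors used Kallisto for transcript abundance against GRCh38.p14, after read checks with the versions FastQC 0.11.9 and MultiQC 1.1 of the submitters' processing notes. The deposited values are TPM per transcript, and 0 columns of the table were left unused. Read depth does not follow from TPM, so counting error is unknown.

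Of 177816 transcripts, 169966 matched a gene symbol of the RefSeq table of GRCh38.p14 with versions ignored, and TPM was summed per gene. Reads shared by overlapping or read-through genes cannot be told apart, and 9 of the 38 genes overlap a gene of at least 1 TPM. Differences used a pseudocount of 1 TPM, and no test was run. The authors' own test on these libraries was not used, and protein sequences were not analysed here. Alternatives changed the pseudocount, the minimum mean, the scaling, the matching and the transcripts summed. Promoter windows came from RefSeq, and the XBP1 intron and GC content from GENCODE v44 transcripts on GRCh37.

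All 38 genes were named. From each further list, the largest rise and largest fall at a mean of at least 10 TPM were named, and of transcripts those of XBP1 and those past 2-fold at 5 TPM or more. Further genes and transcripts were named after their values were seen. These were GFAP, VIM and the other markers, P4HA1 and its relatives, BLOC1S1, DDIT3, ATF4, EIF2AK3 and others of the list that holds the PERK arm. The same holds for leading transcripts of EDEM2, CREB3L2 and TXNDC11. The 38 genes, the lists and the limit of 1.2-fold were chosen with earlier results of these data known. The calling of 2-fold differences was checked on simulated data. That check did not cover the limit of 1.2-fold, the medians, the XBP1 shares or the promoter search. Python 3.11.15, numpy 2.4.6, pandas 2.3.3 and matplotlib 3.10.9 were used.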

Additional observations from a re-analysis of the deposited data

How the results depend on the processing

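No paired analysis was possible because each condition had a single library, and for the same reason no library could be left out. The median difference of the genes past the minimum mean stayed between -0.08 and -0.06 with a pseudocount of 0.1 TPM or none, a minimum mean of 1 TPM, median-ratio scaling, curated coding transcripts only, matching by versioned identifier and centring within deciles of GC content. The last setting, the XBP1 share of the spliced and unspliced forms alone and the sum with the read-through gene were chosen after seeing the data. Of 197 recomputed counts, medians and shares, 191 stayed close to the reported value (within 1.5 times for counts, 0.1 on the log2 scale for medians and 1 percentage point for shares). The count of the 38 genes past 1.2-fold lower stayed within these limits. It was 3 in place of 4 with centring on GC content, since P4HB no longer passed, and 6 with curated coding transcripts only. Among the 6 others, centring on GC content left 0 genes past 1.2-fold higher. With curated coding transcripts only, the median of the sensors and transcription factors was -0.12, since ATF6 then fell under 10 TPM. In that setting 8 genes of the further lists were past 1.2-fold lower in place of 5. Transcripts of the 38 genes past 2-fold numbered 25 higher and 19 lower with a pseudocount of 0.1 TPM, and 1 was higher with a minimum mean of 1 TPM, as transcripts near 0 then count more or drop out. Of 392 recomputed values of single genes 7 moved by 0.1 or more. These were DERL3 under 3 settings and HYOU1, TXNDC11, EDEM3 and TUSC3 with curated coding transcripts only. Beside these, EDEM2 moved from -0.40 to -0.29 in the sum with its read-through gene. With curated coding transcripts only, HYOU1 was at -0.24 and EDEM3 at -0.27. Unknown read depth and 1 library per condition limit every value, those near 0 most of all.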
